A study of Mus musculus with 6 samples.

Results

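NK and T lymphocytes were picked out of mouse bladder mucosa cell by cell, from the raw counts of 6 single-cell RNA-seq libraries. A cell was taken when it held over 500 genes, at least 2 unique molecular identifiers (UMIs, each marking 1 captured mRNA molecule) of Nkg7, Gzma, Cd3d, Cd3e, Trbc2 and Il2rb together, no UMI of C1qa, C1qb or C1qc, and fewer than 20 UMIs of 6 keratins and 4 collagen and matrix genes together. This gave 221 cells of 55399, or 0.399%. Cells with no Cd3d or Cd3e UMI were called NK-like (63 cells) and cells with at least 1 were called T-like (158 cells).

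The mice were wild-type C57BL/6 animals of 8 weeks. Healthy mice were compared with mice given cyclophosphamide (CPP), a DNA-alkylating drug whose urinary metabolites injure the bladder lining. Acute mice had 1 injection of 150 mg/kg and were collected 48 h later, on day 2, and Chronic mice had 4 injections of 75 mg/kg and were collected 48 h after the last, on day 11. Each condition had 2 libraries, each made from the pooled, peeled and enzymatically digested mucosa of several mice, so a library, not a cell, is the replicate.

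NK cells are innate lymphocytes that kill stressed or infected cells with granzymes and release chemokines. They read their targets through germline-encoded receptors of the Klr families and Ncr1, several of which signal through the adaptors Tyrobp, Fcer1g and Hcst. T cells carry a rearranged receptor of alpha and beta or gamma and delta chains, held at the surface by the Cd3 chains and read inside the cell by Lck, Zap70 and Lat. Gamma delta T cells are found at barrier linings, where many make interleukin 17.

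The libraries differed in ways that bear on these cells. They held 54604109 to 111985678 UMIs, and the median depth of all cells ran from 5530 to 9146 UMIs. The table of Acute 2 listed 20180 genes, the most of any table. It was the one that listed Trbc2 and the other constant genes of the T cell receptor, so these genes could be counted in no other library. The table of Acute 1 did not list Cd3d or Cd3e, and a T cell there could enter only through Nkg7, Gzma or Il2rb and would then be called NK-like. The tables of Healthy 1 and Acute 1 left out rarely detected genes, and the table of Healthy 1 broke off in its last line. No barcode was shared between lymphocytes of different libraries, and 12 lymphocytes (5.43%) had a barcode that was also a cell of another library, against 5.96% of all cells.

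The lymphocytes were very unevenly spread. Healthy 1 held 22 and Healthy 2 held 10, Acute 1 held 1 and Acute 2 held 185, and Chronic 1 held 0 and Chronic 2 held 3. Acute 2 therefore gave 83.7% of them, and 36 came from the other libraries. As a share of cells they made up 0.264% (Wilson 95% interval 0.174 to 0.399) of Healthy 1, 0.103% (0.0561 to 0.19) of Healthy 2, 0.0145% (0.00256 to 0.082) of Acute 1, 1.33% (1.16 to 1.54) of Acute 2 and 0.0561% (0.0191 to 0.165) of Chronic 2. In Chronic 1, 0 of 11251 cells allowed a share of up to 0.0267%. All such intervals and limits cover counting error only. The lowest and the highest nonzero share both belonged to Acute libraries, on either side of both Healthy libraries, whereas both Chronic libraries lay below both Healthy ones.

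**Figure D1:**
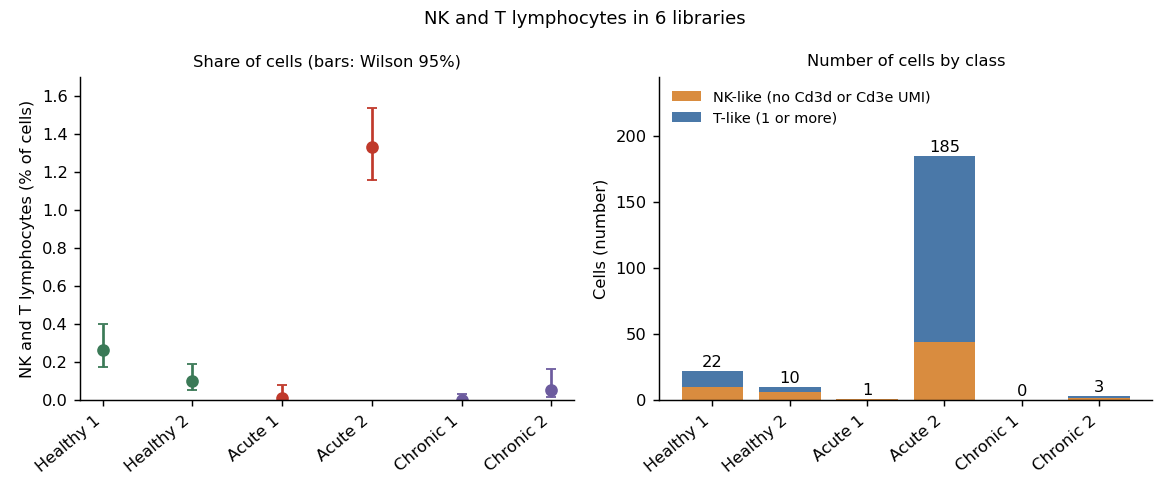
NK and T lymphocytes in the 6 libraries. Left, their share of cells with over 500 genes (vertical axis, percent; horizontal axis, library; bars, Wilson 95% intervals); right, their number, with the NK-like and T-like cells stacked and the total printed above; Acute 2 holds 185 of the 221 cells and stands at 1.33%, while Acute 1 holds 1 cell.

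Over libraries the mean share was 0.183% ± 0.113 (SD, n = 2) in Healthy, 0.674% ± 0.933 (SD, n = 2) in Acute and 0.028% ± 0.0397 (SD, n = 2) in Chronic. No contrast could pass a threshold of 0.05, since an exact two-sided permutation test of 2 against 2 libraries cannot go below 0.333. Acute minus Healthy was 0.491 percentage points (exact permutation p = 1). Without Acute 2, this difference was -0.169. Chronic minus Healthy was -0.155 percentage points (exact permutation p = 0.333), the smallest p that this design allows. Acute minus Chronic was 0.646 percentage points (exact permutation p = 0.667), and without Acute 2 it was -0.0136.

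The lymphocytes as a share of the cells low in keratin and collagen put the libraries in the same order. The shares were 6.25% and 2.85% in the Healthy libraries, 0.328% and 8.89% in the Acute libraries, and 0% and 1.17% in the Chronic libraries. Acute 2 held 2081 such cells, against 195 to 352 in the other libraries, and it stood closer to Healthy 1 on this scale. Trbc2 took part in the gate of Acute 2 alone. When it was dropped, a choice made after the data were seen, 32 cells of Acute 2 were lost and 153 remained, 33 NK-like and 120 T-like, and the other libraries kept their numbers.

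Cells at the edge of the gate were common in Acute 2. Across the libraries 28 lymphocytes held exactly 2 UMIs of the 6 genes and 46 other cells held exactly 1. The median was 17 UMIs of these genes per lymphocyte in Healthy 1 and 13.5 in Healthy 2, against 5 in Acute 2. Only 4 lymphocytes held 15 to 19 keratin and collagen UMIs, and 8 cells that met the other limits held 20 to 24. The lymphocytes of Acute 2 were also shallower, with a median of 1999 UMIs, against 4024 in Healthy 1, 3169.5 in Healthy 2 and 4169 in Chronic 2. The Scrublet method called 5 lymphocytes doublets, all of them in Acute 2, and 25 lymphocytes held markers of another immune or endothelial lineage.

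NK-like cells made up 45.5% of the lymphocytes of Healthy 1 (Wilson 95% interval 26.9 to 65.3), 60% of Healthy 2 (31.3 to 83.2), 23.8% of Acute 2 (18.2 to 30.4) and 66.7% of the 3 cells of Chronic 2 (20.8 to 93.9). The single lymphocyte of Acute 1 counted as NK-like. Over libraries, the differences were 9.16 percentage points for Acute minus Healthy (exact permutation p = 1), 13.9 for Chronic minus Healthy (exact permutation p = 0.667, 1 library against 2, the smallest possible) and -4.77 for Acute minus Chronic (exact permutation p = 1). The Acute mean rested on the 1 cell of Acute 1, and without that library Acute minus Healthy was -28.9. Between the well filled libraries the NK-like share was lower in Acute 2 than in either Healthy library, with an interval that overlapped that of Healthy 1 and not that of Healthy 2.

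The genes of the gate describe the classes and are given without a test. Levels here are CPM, the UMIs of a gene as a share of all UMIs of the class in a library, on the usual scale. Nkg7, a granule membrane protein of cytotoxic cells, stood at 2931 CPM in NK-like cells of Healthy 1, 2232 in Healthy 2 and 1696 in Acute 2, against 684, 1134 and 259 in T-like cells. Gzma, the granzyme A gene, stood at 2611, 3719.6 and 1329.9 CPM in NK-like cells of Healthy 1, Healthy 2 and Acute 2. In T-like cells Gzma was at 430 and 2269 CPM in the Healthy libraries, the latter from 1 cell, and at 6.33 in Acute 2. Il2rb, a chain of the interleukin 2 and 15 receptors, was at 369, 372 and 434 CPM in NK-like cells and at 223, 0 and 120 in T-like cells. Cd3d stood at 684, 378 and 810 CPM in T-like cells and Cd3e at 350, 302 and 310. In Acute 2 Trbc2, the beta chain constant gene, was at 530 CPM in NK-like and 690 in T-like cells. Both levels are partly set by the gate, since without Trbc2 the 44 NK-like cells fall to 33 and the 141 T-like cells to 120.

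NK receptor genes, which the rule did not use, bore out the NK-like name in the Healthy libraries and only partly in Acute 2. A UMI of the NK markers Ncr1, Klrb1c, Klrd1, Klre1, Eomes, Tbx21 or Prf1 was found in 9 of 10 NK-like cells of Healthy 1, 5 of 6 of Healthy 2 and 24 of 44 of Acute 2. In T-like cells the numbers were 4 of 12, 1 of 4 and 6 of 141. The NK-like cells of Acute 2 were shallower, with a median of 1997.5 UMIs, against 3709.5 in Healthy 1 and 3169.5 in Healthy 2. Ncr1 and Prf1 were not listed for Healthy 1. The part of depth and of the genes listed in these numbers was not tested. Background was low, with such a UMI in 4 of 159 C1q cells of Acute 2 (2.52%). C1q cells are the macrophages of the mucosa, taken here as cells with at least 3 C1q UMIs and under 20 keratin and collagen UMIs.

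Some NK-like cells of Acute 2 carried UMIs of T cell receptor constant genes or Cd3g. Such UMIs do not show whether a cell had a rearranged receptor. A UMI of Cd3g or of a receptor constant gene other than Trbc1 and Trbc2 was present in 20 of 44 (45.5%), against 133 of 141 T-like cells (94.3%), 1 of 159 C1q cells (0.629%) and 1.43% of the cells rich in keratin. By gene, these were Tcrg-C genes in 12 cells, Cd3g in 7, Trac in 6 and Trdc in 2. Trbc1 or Trbc2 was in 30 of the 44, a number partly set by the gate, since Trbc2 admitted cells in this library. Cd3g, which Healthy 1 and Healthy 2 did list, was in 1 of 10 and 0 of 6 NK-like cells there, and the receptor constant genes could not be counted in those libraries.

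A wider set of NK receptors, the NK receptor list without its adaptors and Klrk1, had a UMI in 31 of the 44 NK-like cells of Acute 2. Its background was higher than that of the 7 markers, with 28 of 141 T-like cells (19.9%), 8 of 159 C1q cells (5.03%) and 12.2% of the keratin-rich cells of that library. In Healthy 1 and Healthy 2 this set had a UMI in 10 of 10 and 6 of 6 NK-like cells. It also had one in 4 of 12 and 3 of 4 T-like cells there. The 31 cells of Acute 2 held Trbc1 or Trbc2 in 18 cells, Tcrg-C genes in 5, Trac in 1, Trdc in 1 and Cd3g in 1. They held all 94 Xcl1 UMIs of the class. The 13 without such a UMI held Trbc1 or Trbc2 in 12 cells, Tcrg-C genes in 7, Trac in 5, Trdc in 1 and Cd3g in 6. With Trbc counted, 20 of the 44 held both an NK receptor and a T cell receptor gene or Cd3g. A further 11 held an NK receptor alone and 13 a T cell receptor gene or Cd3g alone. These genes thus did not split the class cleanly. In Acute 2 the NK-like class is a class of cells without a Cd3d or Cd3e UMI, some with UMIs of T cell receptor constant genes or Cd3g.

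Single markers of the set of 7 gave these levels. Klrb1c, which codes for the NK1.1 antigen, was at 246, 213 and 116 CPM in NK-like cells of Healthy 1, Healthy 2 and Acute 2, and Klre1, a lectin-like receptor, at 394, 319 and 212. In T-like cells Klrb1c did not exceed 15.9 CPM and Klre1 did not exceed 47.7. Eomes, a transcription factor of NK cells, was at 148, 159 and 28.9 CPM in NK-like cells and at 0 in T-like cells of these libraries. Ncr1, which codes for the receptor NKp46, was listed for Healthy 2 and Acute 2, with 5 UMIs in 4 NK-like cells and 9 UMIs in 7.

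Genes outside the gate were then compared between NK-like and T-like cells by summing UMIs per library and class, with the library as a block. Healthy 1 and Acute 2 had at least 10 cells of each class. The classes were cut from the same cells by related transcripts, so the test asks which other genes went with Cd3d and Cd3e in both libraries. A gene could pass the filter on low counts through 1 class alone, and its direction was then largely fixed. Of 867 genes, 4 were higher in NK-like cells at an adjusted p below 0.05 (0.461%) and 0 were lower (edgeR quasi-likelihood test, Benjamini-Hochberg). At an unadjusted p below 0.05 there were 69 genes, 43 of them higher. DESeq2 called 6 higher and 1 lower.

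Fcer1g, the gamma chain that couples Fc and NK receptors to signalling, had 93 UMIs in NK-like and 8 in T-like cells of Healthy 1, and 104 and 10 in Acute 2. Its level was 2291 against 127 CPM and 1002 against 31.6 CPM, with no overlap between the classes. The log2 fold change was 4.50 ± 0.34 (SE; edgeR adjusted p = 0.012). In Healthy 2, which the test did not use, Fcer1g had 27 UMIs in NK-like cells and 0 in T-like cells. Tyrobp, the adaptor DAP12, was at 2241 against 239 CPM in Healthy 1 and 983 against 57 CPM in Acute 2, a log2 fold change of 3.57 ± 0.34 (SE; edgeR adjusted p = 0.015). Healthy 2 again stood the same way, at 2869 against 75.6 CPM. At these T-like levels both genes passed the filter on low counts through the NK-like sums. Their direction was thus largely fixed, and their changes and p-values are a description.

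Xcl1, a chemokine that draws cross-presenting dendritic cells, was at 542 against 47.7 CPM in Healthy 1 and at 906 against 47.5 in Acute 2. The log2 fold change was 4.02 ± 0.38 (SE; edgeR adjusted p = 0.015), and Healthy 2 had 19 UMIs in NK-like cells and 0 in T-like cells. At these T-like levels Xcl1 too passed the filter on low counts through the NK-like sums, so its direction was largely fixed. The fourth gene, H2-Aa, codes for a chain of MHC class II and rested on few cells, with 25 UMIs in 1 NK-like cell of Healthy 1 and 41 UMIs in 4 of Acute 2 (log2 fold change 3.77 ± 0.43, SE; edgeR adjusted p = 0.030). Only 1 of the 44 NK-like cells of Acute 2 held 3 or more UMIs of H2-Aa, H2-Ab1, H2-Eb1 and Cd74 together. Most of the 41 H2-Aa UMIs thus lay in 1 cell. H2-Aa also gave 29 UMIs in 1 NK-like cell of Chronic 2. Fcer1g, Tyrobp and Xcl1 kept their direction but missed the threshold when the keratin and collagen limit was 10 UMIs (edgeR adjusted p = 0.14, 0.30 and 0.19) or without the library block (0.19, 0.22 and 0.070). No gene was called under either setting, so H2-Aa was not called there either.

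Of the lists drawn up for these cells, NK receptors had 8 of 26 members tested, with 2 higher (Tyrobp and Fcer1g) and 0 lower. Over all genes tested 0.461% were higher. The median log2 fold change of the list was 3.67, against -0.04 over all genes tested. Members could pass the filter on low counts through the NK-like sums alone, so this direction was largely fixed and is a description. The T cell receptor complex and signalling list had 8 of 26 tested, 0 called and a median of -0.84. Within it Cd3g had a log2 fold change of -2.95 and an edgeR adjusted p of 0.053. Its levels were 24.6 CPM in NK-like and 589 in T-like cells of Healthy 1, 183 and 1117 in Acute 2, and 0 and 907 in Healthy 2. The cytotoxic list had 6 of 18 tested and 0 called.

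**Figure D2:**
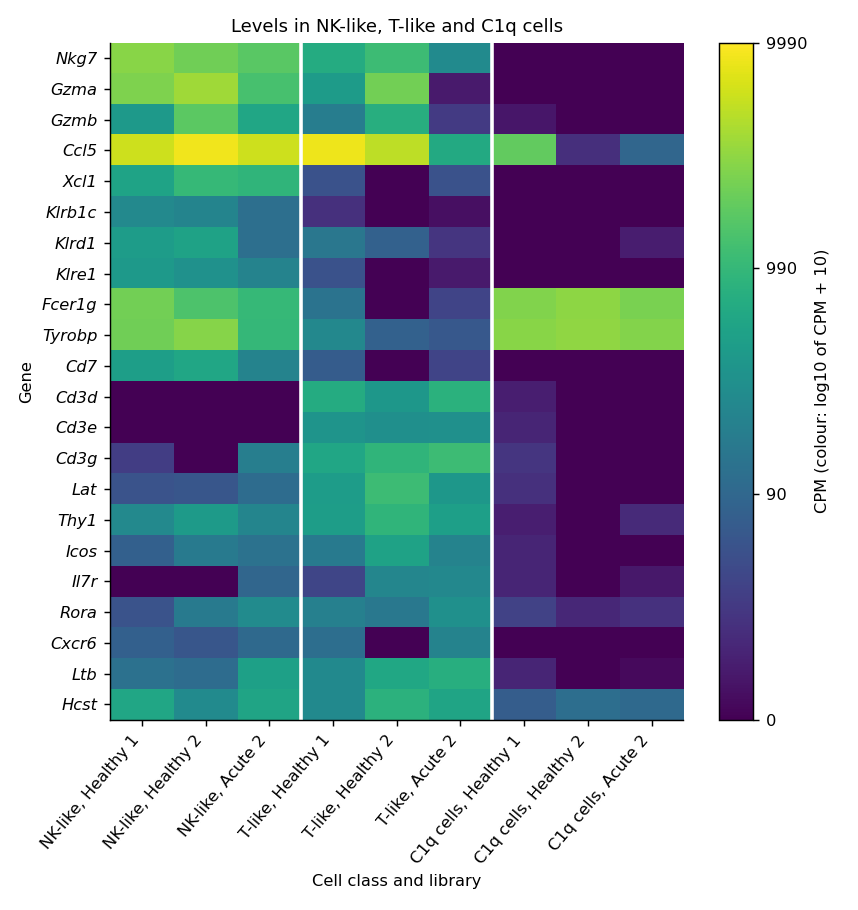
Levels of 22 lymphocyte genes (rows) in NK-like, T-like and C1q cells of Healthy 1, Healthy 2 and Acute 2 (columns); colour gives log10 of CPM plus 10, and its scale is marked in CPM. Xcl1, Klrb1c, Klre1, Fcer1g and Tyrobp are brighter in the NK-like than in the T-like columns, Cd3g and Lat are brighter in the T-like columns, and Fcer1g and Tyrobp are also bright in C1q cells.

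Ccl5 and Gzmb, which were not called between the classes, had these levels. Ccl5, a chemokine of cytotoxic lymphocytes, was at 5911 CPM in NK-like and 8483 in T-like cells of Healthy 1, and at 8555 and 4991 in Healthy 2. In Acute 2 Ccl5 was at 5898 CPM in NK-like cells and 655 in T-like cells. Gzmb, the granzyme B gene, was at 394 and 175 CPM in Healthy 1, 1754 and 756 in Healthy 2, and 588 and 22.1 in Acute 2, always higher in NK-like cells. Hcst and Ltb, by which the study named its NK cells, were not called between the classes. Hcst was at 591, 266 and 559 CPM in NK-like and 255, 832 and 551 in T-like cells of Healthy 1, Healthy 2 and Acute 2, and Ltb, a lymphotoxin chain, was at 123, 106 and 491 against 255, 605 and 756, so Hcst had no fixed order and Ltb stood higher in T-like cells of all 3 libraries.

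The T-like cells of Acute 2 held constant gene UMIs of several receptor chains. Of 141 cells, 117 had a UMI of Trbc1 or Trbc2, 50 of Trac, 62 of a Tcrg-C gene and 49 of Trdc (34.8%), the delta chain constant gene, and 8 (5.67%) had none. Trdc came together with a Tcrg-C gene in 39 cells and with Trac in 6. Trbc was no sign of the lineage among these gated cells, since 37 of the 49 cells with Trdc also held it. Both Trbc counts are partly set by the gate, since without Trbc2 the 141 T-like cells fall to 120. The coreceptors were nearly absent, with 7 Cd4 UMIs in 6 cells, 3 Cd8a UMIs in 3 cells and 10 Cd8b1 UMIs in 6 cells. Foxp3, the factor of regulatory T cells, was at 0 in every library that listed it.

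The 49 cells with a Trdc UMI differed from the 92 without in several genes, described here without a test because the cells came from 1 library and the split was chosen after the data were seen. Median depth was close, at 1940 and 2082.5 UMIs. Tcrg-C1 was in 75.5% of the cells with Trdc and in 18.5% of those without. Cd163l1, a scavenger receptor known from interleukin 17 producing gamma delta T cells, was in 59.2% and 5.43%. Il17a itself was in 26.5% and 6.52%, with 48 and 11 UMIs. Sox13, a factor of the gamma delta lineage, was in 10.2% and 0%.

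Other genes stood lower in the cells with Trdc. Trac was in 12.2% of the cells with Trdc and 47.8% of those without, Cd28, the costimulatory receptor, in 0% and 38.0%, Cd27 in 0% and 14.1%, Nkg7, a gene of the gate, in 6.12% and 30.4% and Ccl5 in 2.04% and 23.9%. Ramp1, part of the receptor for the neuropeptide CGRP, was in 77.6% and 46.7%. Il1r1, an interleukin 1 receptor chain (14.3% and 3.26%), Il7r (46.9% and 38.0%), Cxcr6 (38.8% and 27.2%), Cd69 (42.9% and 33.7%) and Icos (28.6% and 34.8%) had overlapping intervals. So did Gzmb (2.04% and 3.26%), Cd8b1 (0% and 6.52%), Ifng (0% and 5.43%) and Trbc1 (38.8% and 33.7%). The urothelial transcript Upk3a was in 77.6% and 71.7%, so cells of both sets held RNA of the surrounding urothelium.

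**Figure D3:**
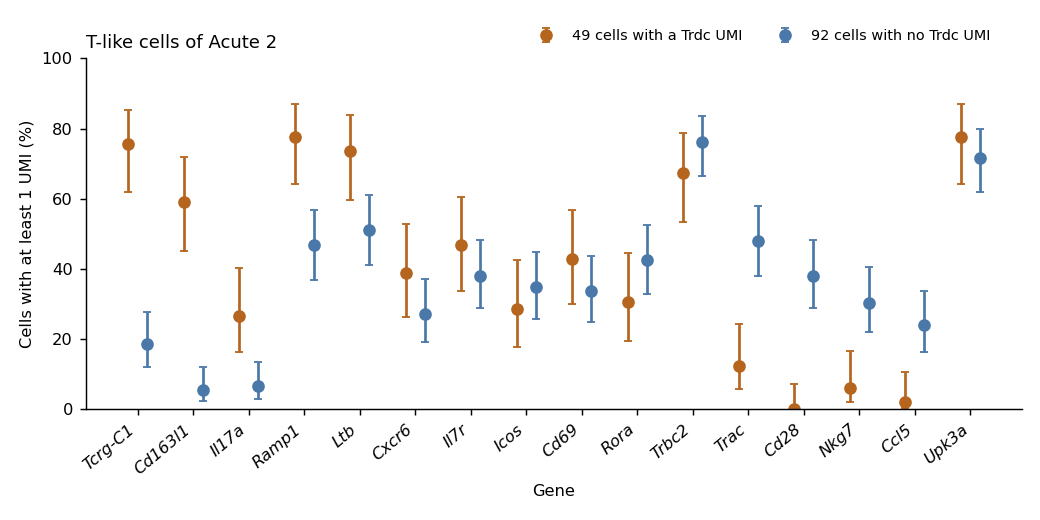
Share of T-like cells of Acute 2 with at least 1 UMI of each gene (vertical axis, percent; horizontal axis, gene), for the 49 cells with a Trdc UMI and the 92 without; bars are Wilson 95% intervals, which cover counting error only. Tcrg-C1, Cd163l1 and Il17a stand higher in the cells with Trdc, and Trac, Cd28, Nkg7 and Ccl5 lower.

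Lymphocytes were next set against the C1q cells, another class of mucosal immune cells, in Healthy 1, Healthy 2 and Acute 2. Both classes were picked by their transcripts and C1q was part of both rules, so the test describes which other genes differed between them on average over the libraries, with the genes of the rule left out. A gene could pass the filter on low counts through 1 class alone, and such a gene had to differ, so the counts of list members below are a description and support nothing. Of 3264 genes, 298 were higher in lymphocytes (9.13%) and 549 lower (16.8%), with a median log2 fold change of -0.01. DESeq2 called 155 higher and 387 lower, and without Acute 2 edgeR called 188 higher.

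Of the 26 genes of the T cell receptor complex and signalling list 14 passed the filter, and C1q cells had no UMI of 4 of the 18 listed in Healthy 1, 17 of 19 in Healthy 2 and 20 of 26 in Acute 2. The direction of these 14, all higher in lymphocytes, was largely fixed by the filter, and the values of a few are given as levels. Normalised levels of Lck, the kinase next to the receptor, were 350, 555 and 241 CPM in lymphocytes of Healthy 1, Healthy 2 and Acute 2 and 5.3, 0 and 0 in C1q cells (these CPM use TMM library factors). Lat, the scaffold of receptor signalling, was at 499, 740 and 526 CPM against 31.8, 0 and 0. Thy1 was at 649, 924 and 726 CPM against 15.9, 0 and 24.7, and Ptprcap, a partner of the phosphatase CD45, at 499, 1202 and 706 against 5.3, 7.08 and 0, with no overlap for either.

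The NK receptor list went both ways. Of 10 members tested of 26, 7 were higher (Klrk1, Klrd1, Klrb1c, Klre1, Hcst, Klrb1b and Klra8), and Tyrobp, Fcer1g and Fcgr3 were lower. Klrb1c, Klre1 and Klra8 had no UMI in C1q cells. Klrk1, which codes for the activating receptor NKG2D, was at 300, 139 and 204 normalised CPM in lymphocytes against 10.6, 7.08 and 10.6 in C1q cells. Tyrobp was lower in lymphocytes, at 1765, 2542 and 490 against 5845, 5853 and 5254 (log2 fold change -2.13 ± 0.39, SE; edgeR adjusted p = 7.0e-04). Fcer1g was likewise lower (-2.41 ± 0.35, SE; edgeR adjusted p = 8.3e-05). Hcst, the adaptor DAP10, was higher in lymphocytes, at 666, 740 and 947 against 133, 205 and 183 (log2 fold change 2.22 ± 0.26, SE; edgeR adjusted p = 1.4e-05).

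Several genes had UMIs in lymphocytes and none in C1q cells, and their folds are lower bounds against a floor of 3 counts over the group. Xcl1, with 153 UMIs against 0, was at least 108-fold higher, Gimap3 at least 82.0-fold, Cxcr6, a receptor of tissue-resident lymphocytes, at least 61.5-fold, and Zap70 at least 29.7-fold. In the other direction the macrophage genes Ccl12, Folr2, Csf1r and Mrc1 had no UMI in lymphocytes and were at least 140-, 133-, 99.4- and 57.5-fold lower. Of the 11 macrophage and monocyte markers, which mark the class of the C1q cells, 10 were lower, and Ly6c2, which T cells and monocytes both make, was higher. All 5 class II and dendritic markers tested of 10 were lower.

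Cytokines and their receptors went both ways. Of 10 cytokine and chemokine genes tested of 19, Ltb, Xcl1, Ccl5 and Ifng were higher and Ccl3, Ccl4, Il10 and Tnf were lower. Ltb was at 350, 462 and 1183 normalised CPM in lymphocytes against 21.2, 0 and 3.53 in C1q cells. Ccl5 was at 12869.9, 10492 and 3342 against 3734, 28.3 and 169 (4.28 ± 0.82, SE; edgeR adjusted p = 9.4e-04), and its level in C1q cells of Healthy 1 exceeded that in lymphocytes of Acute 2. Of the receptors, Il2rg, Ifngr1, Cxcr6 and Ccr2 were higher and Tgfbr1, Tgfbr2, Cxcr4 and Cx3cr1 lower, of 10 tested of 22. Residency and circulation genes had 6 of 9 tested higher and 0 lower, including Itgb7, Cd7 and Cd69. Among 10 transcription factors tested of 21, Tcf7, Gata3, Ikzf3, Ikzf2 and Rora were higher and Zeb2, Klf2 and Maf lower. Gata3 was higher in 2 of 3 libraries and was lost in DESeq2 (adjusted p = 0.18) and without Healthy 1 (edgeR adjusted p = 0.098).

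**Figure D4:**
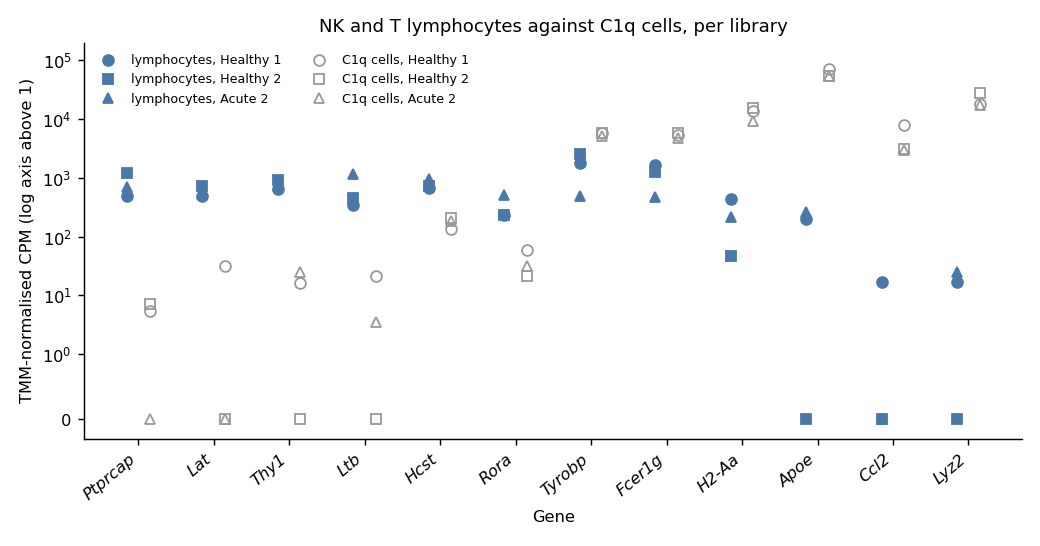
TMM-normalised CPM (vertical axis, logarithmic above 1) of 12 genes (horizontal axis) in lymphocytes (filled) and C1q cells (open) of Healthy 1 (circles), Healthy 2 (squares) and Acute 2 (triangles). Ptprcap, Lat, Thy1, Ltb, Hcst and Rora are higher in lymphocytes in all 3 libraries, and Tyrobp, Fcer1g, H2-Aa, Apoe, Ccl2 and Lyz2 are lower.

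Of 12 cell cycle genes tested of 30, 8 were higher in lymphocytes than in C1q cells, including Top2a and Hmgb2, and 0 were lower, against 9.13% and 16.8% of all genes. Immediate-early and dissociation genes were lower in lymphocytes for 19 of 26, with Nr4a2 the 1 that was higher (median log2 fold change -1.53). Of 16 interferon response genes tested of 26, 7 were lower, among them Isg15 and Irf7, and Psmb8 and Gbp4 were higher. Urothelial markers showed no call among 6 tested of 10 (median 0.12). B and plasma cell, neutrophil and mast cell, and endothelial markers were too low to be tested against C1q cells. The summed B cell list reached 61.9 CPM in lymphocytes at most, and the neutrophil and mast cell genes were all at 0.

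Against all other cells of their libraries, 730 of 12511 genes were higher in lymphocytes (5.83%) and 2209 lower (17.7%). The median over all genes was -0.75 on the log2 scale and changes are read against it. DESeq2, whose scaling put the median at -0.05, called 509 higher and 606 lower, and it gave no adjusted p for 3154 genes, so the split between the directions differed between the tools. Acute 1 entered this fit with 1 cell and Chronic 2 with 3, and with libraries of at least 10 lymphocytes 774 (5.78%) were higher and 1453 (10.9%) lower of 13386. Of 8 endothelial markers, Pecam1, Flt1 and Emcn were among the genes higher in lymphocytes and 0 were lower (median 1.15), with Pecam1 and Emcn also called in the libraries with at least 10. Their summed level was 300 CPM in Healthy 1 and 102 in Acute 2, and all 8 were at 0 in lymphocytes of the other libraries.

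The genes named next were chosen for large changes with 1 direction in all 5 libraries, so their agreement over libraries is no finding. The lymphocytes were picked by related transcripts, and a gene could pass the filter on low counts through the lymphocytes alone. The changes and p-values given here are therefore a description and support nothing. Icos, a costimulatory receptor, was at 239, 422, 521, 428 and 216 normalised CPM in lymphocytes of Healthy 1, Healthy 2, Acute 1, Acute 2 and Chronic 2, against 0.298 to 2.22 in other cells (log2 fold change 8.04 ± 0.46, SE; edgeR adjusted p = 3.7e-64). Gimap4, a GTPase of lymphocyte survival, was at 442, 548, 104, 359 and 144 CPM against 0.348 to 5.45 (7.27 ± 0.45, SE; edgeR adjusted p = 2.3e-55). Actn2, known as a muscle actinin, was at 73.7, 42.2, 104, 455 and 432 CPM against 1.39 to 2.51 (6.66 ± 0.49, SE; edgeR adjusted p = 4.4e-40). In Acute 2 Actn2 was in 53.1% of the T-like cells with Trdc and 30.4% of those without. The single lymphocyte of Acute 1 held 78 Ccl5, 3 Nkg7, 6 Hcst, 7 Tnfrsf18 and 5 Icos UMIs and no Fcer1g or Tyrobp UMI.

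Changes with injury could be read in gene expression in only 1 library on each side, Healthy 1 and Acute 2, since no other held 20 lymphocytes. They compare those libraries, not the conditions, and have no replicate check, test or SD. Ratios are of shares of all UMIs without mitochondrial and ribosomal genes, over genes with at least 20 UMIs in either library, with Poisson-based 95% intervals for counting error.

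Cell cycle genes stood lower in T-like cells of Acute 2. Summed over the 30 genes of the list, which no minimum affects, T-like cells stood at 10727 CPM in Healthy 1 (Poisson 95% interval 9933 to 11569), 15426 in Healthy 2 (13382 to 17695) and 3012 in Acute 2 (2824 to 3209.9). Of the 30 genes 9 had 20 UMIs in either library, and all 9 were lower by 2-fold or more, where 4.71% of 1592 genes were. For 2 of them, Ube2c (30 UMIs in Healthy 1 and 11 in Acute 2) and Cenpa (20 and 18), this was fixed by the minimum. They met it in Healthy 1 alone, whose T-like cells held fewer UMIs in sum (62830, against 316033 in Acute 2). The other 7 met it in Acute 2. Hmgb2, a chromatin protein of dividing cells, had 138 UMIs in 12 cells of Healthy 1 and 193 UMIs in 141 cells of Acute 2, a ratio of 0.282 (0.225 to 0.353). In NK-like cells 2 of 4 compared were lower by that much, where 5.11% of 509 genes were, with Hmgb2 at 1.02. Over all lymphocytes 10 of 10 compared were lower by 2-fold or more, against 4.46% of 2063 genes.

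The difference in depth was removed by thinning each cell to 1000 UMIs, after which the expected share of T-like cells with a UMI of 14 mitotic genes was 55.2% in Healthy 1, 63.5% in Healthy 2 and 12.2% in Acute 2. Before thinning, 9 of 12, 3 of 4 and 30 of 141 held one. In NK-like cells the thinned shares were 26.4%, 20% and 16.9%, and in C1q cells 13.1%, 10.5% and 10.9%, so the high value was that of T-like cells in both Healthy libraries, over 12 and 4 cells. Without 1 Healthy 1 cell rich in haemoglobin (3790 UMIs) the summed level of the 30 genes in T-like cells of Healthy 1 was 11842 CPM. The 3 lymphocytes of Chronic 2 stood at 6017 CPM for the 30 genes, with all 14 of their mitotic UMIs in the 2 NK-like cells.

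p53 target genes stood higher in lymphocytes of Acute 2 than of the Healthy libraries, and also in the 1 lymphocyte of Acute 1 and the 3 of Chronic 2. These genes are switched on by p53 after DNA damage, among them Cdkn1a, which halts the cycle, Bax, which promotes apoptosis, and Ccng1, which codes for cyclin G1. The promoters of these 3 genes are given, from RefSeq (build GRCm38.p6), because their transcripts were higher together in lymphocytes of Acute 2 and because matches to the p53 half-site lie in them. Each runs from 250 bases before to 50 after the start of the gene on its own strand, and capitals mark matches to the p53 half-site consensus, which reads the same on both strands. Cdkn1a is at chr17:29090729-29091028 on the plus strand, Bax at chr7:45466849-45467148 on the minus strand and Ccng1 at chr11:40755237-40755536 on the minus strand.
Cdkn1a: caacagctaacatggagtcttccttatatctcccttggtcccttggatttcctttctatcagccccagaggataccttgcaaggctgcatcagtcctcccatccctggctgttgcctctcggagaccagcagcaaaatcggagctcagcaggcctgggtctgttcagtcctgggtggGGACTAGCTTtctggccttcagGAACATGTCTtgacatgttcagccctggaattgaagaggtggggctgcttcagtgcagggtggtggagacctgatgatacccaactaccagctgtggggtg
Bax: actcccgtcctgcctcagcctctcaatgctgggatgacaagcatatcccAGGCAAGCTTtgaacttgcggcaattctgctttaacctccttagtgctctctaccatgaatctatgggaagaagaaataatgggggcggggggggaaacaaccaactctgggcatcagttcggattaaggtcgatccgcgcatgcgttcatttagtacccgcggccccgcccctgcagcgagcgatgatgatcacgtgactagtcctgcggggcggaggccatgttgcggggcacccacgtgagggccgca
Ccng1: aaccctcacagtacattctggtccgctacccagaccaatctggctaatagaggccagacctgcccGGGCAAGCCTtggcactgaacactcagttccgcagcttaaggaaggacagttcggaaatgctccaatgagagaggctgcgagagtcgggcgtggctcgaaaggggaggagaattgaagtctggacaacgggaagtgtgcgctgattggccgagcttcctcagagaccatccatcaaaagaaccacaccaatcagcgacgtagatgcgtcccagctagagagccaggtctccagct

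A half-site was present in 8 of the 15 listed targets with a promoter window, of 20 in the list, and in 9.55% of 27025 genes. Cdkn1a was the 1 target with a pair of half-sites at most 13 bases apart, here 12, which 0.074% of all genes had. The pair counted depends on strict matching. The 10 bases right after the second Cdkn1a match, tgacatgttc, miss the consensus at their first base only and are not marked. Such a match is a description of the letters and not a bound site.

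In T-like cells 5 of 7 p53 targets compared were higher by 2-fold or more in Acute 2 than in Healthy 1 (where 24.5% of all genes were). All 7 met the minimum of 20 UMIs in Acute 2 alone, whose T-like cells held more UMIs in sum. Bax, with 186 UMIs against 6, had a ratio of 6.24 (2.82 to 17.2). Ccng1 and Cdkn1a had ratios of 3.22 and 2.60. In NK-like cells both targets compared were higher, Bax at 3.12 (1.49 to 7.56) and Cdkn1a at 4.56, where 18.5% of 509 genes were. NK-like cells of Healthy 1 held 36 UMIs over all 20 targets, so a target could meet the minimum through Acute 2 alone. Over all lymphocytes 5 of 9 were higher, against 18.1% of 2063 genes. Here too a target could meet the minimum through Acute 2 alone, so these counts are a description.

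Summed over the 20 targets, which every table listed, lymphocytes stood at 870 CPM in Healthy 1 (Poisson 95% interval 700 to 1069.5), 967 in Healthy 2 (657 to 1373), 2496 in Acute 2 (2348 to 2652) and 3498 in Chronic 2 (2597 to 4612). The 1 cell of Acute 1 was at 17096. The 3 injured libraries with lymphocytes thus lay above both Healthy libraries, but Acute 1 rested on 1 cell and Chronic 2 on 3. The intervals cover counting error only and not the spread between cells or libraries. C1q cells stood at 1947 and 1257 CPM in Healthy, 5819 and 4296 in Acute and 5139 and 4245 in Chronic, and cells rich in keratin at 1557 and 1679, 3138 and 2123, and 2488 and 2355. In Acute 2 NK-like cells stood at 2920.1 CPM and T-like cells at 2357, and lymphocytes were above the keratin-rich cells, whereas in Healthy they were below them. The summed urothelial markers also stood higher in lymphocytes of Acute 2, at 2275 CPM, than in Healthy 1, at 889, with Healthy 2 at 1935, and their part in the p53 levels was not tested. With the keratin and collagen limit at 10 UMIs, T-like cells of Acute 2 stood at 2123 CPM and those of Healthy 1 at 778.

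**Figure D5:**
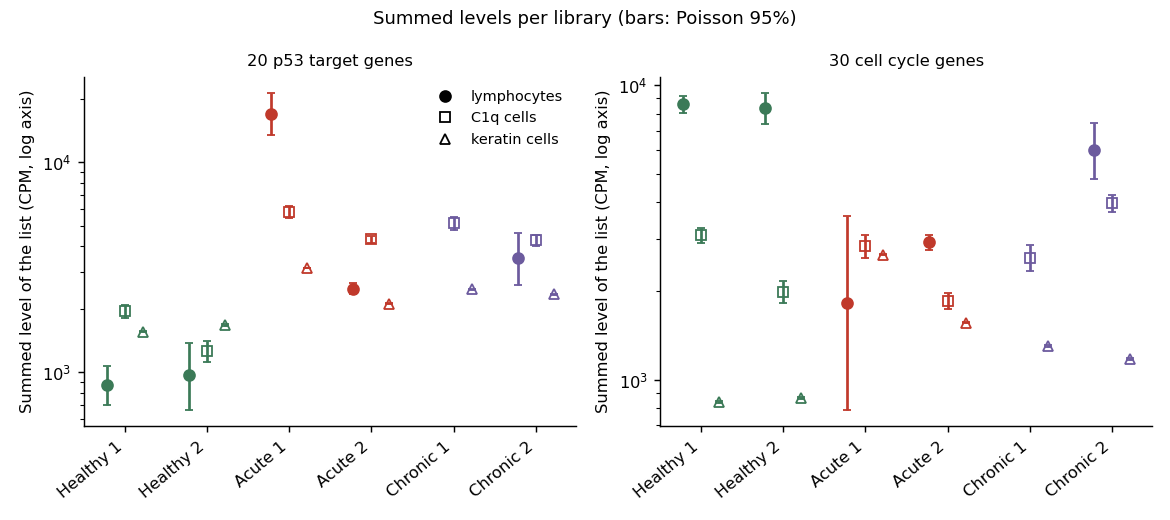
Summed levels of 20 p53 target genes (left) and 30 cell cycle genes (right) in lymphocytes (filled circles), C1q cells (squares) and keratin-rich cells (triangles) of each library (horizontal axis; vertical axis CPM, logarithmic; bars, Poisson 95% intervals). Lymphocytes stand at 870 and 967 CPM for p53 targets in Healthy and at 2496 in Acute 2, while for cell cycle genes they stand at 8614 and 8333 in Healthy and at 2925 in Acute 2.

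Other genes of T-like cells differed between the libraries Acute 2 and Healthy 1. Ccl5 had 533 UMIs in the 12 cells of Healthy 1 and 207 in the 141 of Acute 2, a ratio of 0.0782 (0.0663 to 0.092), with Healthy 2 on the side of Healthy 1. Il7r, the interleukin 7 receptor, had 2 and 77 UMIs, a ratio of 7.76, Cd69, an early activation and residency marker, had a ratio of 4.63 and Ltb one of 3.01. Il7r was at 31.8 CPM in Healthy 1, 227 in Healthy 2 and 244 in Acute 2, Cd69 at 47.7, 378 and 218, and Ltb at 255, 605 and 756. Healthy 2 was thus nearer to Acute 2 or above it for all 3 genes, on 3, 5 and 8 UMIs whose intervals overlap those of both other libraries.

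Of 12 receptor complex and signalling genes, 11 were within 2-fold and Lck stood at 0.483. Of 10 interferon response genes 6 were higher by 2-fold or more, where 24.5% of all genes were. A gene could meet the minimum of UMIs through Acute 2 alone, whose T-like cells held more UMIs in sum. Rsad2 and Rtp4 did so, with no UMI in T-like cells of Healthy 1. The count of interferon genes is therefore a description. Summed over the 26 interferon genes, T-like cells stood at 1909.9 CPM in Healthy 1, 3327 in Healthy 2 (Poisson 95% interval 2418 to 4467) and 3053 in Acute 2, a value inside the interval of Healthy 2. Tmem176a and Tmem176b, which code for membrane proteins, had ratios of 8.19 and 9.60, and Tmem176a was also in 71.1% of the C1q cells of Acute 2. Markers of other cell types stood higher in the same comparison, with ratios of 7.86 for Sparc, 7.45 for Cd74, 4.43 for Acta2 and 3.09 for Apoe. Of 6 urothelial markers 4 were higher by 2-fold or more, and a marker too could meet the minimum through Acute 2 alone. The part of these markers in the ratios of T-like cells was not tested.

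In NK-like cells of the same 2 libraries Ccl5 stood at a ratio of 1.04. Fcer1g and Tyrobp stood at 0.458 and 0.459 and Ltb and Rora at 4.18 and 5.74. All 5 urothelial markers compared were higher by 2-fold or more, where 18.5% of 509 genes were, among them Ly6d at 7.58 and Sfn at 13.9. NK-like cells of Healthy 1 held 23 UMIs over all 10 markers, so a marker could meet the minimum through Acute 2 alone. Summed, the urothelial markers stood at 566 CPM in NK-like cells of Healthy 1, 2019 in Healthy 2 and 2226 in Acute 2. The part of this urothelial RNA, of the NK-like cells with T cell receptor gene or Cd3g UMIs and of the cells that Trbc2 admitted in Acute 2 alone was not tested.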

How the data were processed

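6 libraries of bladder mucosa cells were analysed, 2 per condition. Per the submitters' processing notes the authors used Cell Ranger and the mouse build mm10, and they deposited raw UMI counts per gene and cell, without normalization. No cell exceeded 10% mitochondrial UMIs. The members and gene lists were chosen with earlier results of these data known. Doublets were scored by the Scrublet method in scanpy 1.11.5 (0.8% per 1000 cells) and kept unless stated. UMIs were summed per library and class (at least 10 cells, except against all other cells), mitochondrial and ribosomal genes and 19 genes of the rule were left out, and classes were compared in edgeR 4.0.16 (filterByExpr, TMM, quasi-likelihood test, library as a block, Benjamini-Hochberg at 0.05) in R 4.3.3, with DESeq2 1.42.0 as an alternative. The edgeR steps were tested on simulated data. Shares were compared with exact permutation tests over libraries. Gene fits between conditions, planned for libraries with at least 20 lymphocytes, could not be made, and Healthy 1 and Acute 2 were compared by ratios. P-values of the gene fits rest on how the difference between classes varied over libraries. In edgeR this spread was estimated with information shared over all genes tested, not from the libraries of each gene alone. P-values of the shares rest on the spread between libraries. Named genes were list members of the highest level and the 10 largest rises and falls at 100 CPM or more with 1 direction in all libraries. Genes of the receptor subsets, ratios for single genes and Actn2 shares were picked after their values were seen. Other tools were Python 3.11.15, numpy 2.4.6, scipy 1.17.1 and pandas 2.3.3. A gene of the lists is not reported here.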

Additional observations from a re-analysis of the deposited data

How the results depend on the processing

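The lymphocyte share rested on Acute 2. With each library left out in turn, Acute minus Healthy ran from -0.169 to 1.15 percentage points, Acute minus Chronic from -0.0136 to 1.31 and Chronic minus Healthy from -0.236 to -0.0752. The first 2 reversed without Acute replicate 2. The NK-like share rested on libraries with 1 and 3 cells. With each library left out, Acute minus Healthy ran from -28.9 (without Acute replicate 1) to 47.3, Acute minus Chronic from -42.9 to 33.3 (without Acute replicate 2) and Chronic minus Healthy from 6.67 to 21.2. Chronic minus Healthy became -7.14 and Acute minus Chronic 12.6 with a keratin and collagen limit of 10 UMIs, -8.09 and 11.3 without cells holding markers of other lineages, and -17.1 and 25.6 with Cd3g and Trac added to the split. Chronic rested on Chronic 2 alone, which held 2 NK-like cells and 1 T-like cell in the main gate. It held 1 and 1 in the first 2 of these settings and 1 and 2 in the third. The shares of other libraries moved too, and the part of each library was not tested. Acute minus Healthy became -39.2 with the lymphocyte genes thinned to 1000 UMIs per cell, a setting in which Acute 1 held 0 lymphocytes, so that Acute was Acute 2 alone, as in the -28.9 above.

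Replicate numbers in the labels are shared by number only. Pairing libraries by replicate number (a replicate block) left the share differences at 0.491, -0.155 and 0.646 percentage points, with exact permutation p of 1, 0.5 and 0.5, and the NK-like difference of Acute minus Healthy at 9.16. The block, DESeq2 and left-out libraries gave no gene result between conditions, because only Healthy 1 and Acute 2 held at least 20 lymphocytes.

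Of NK-like against T-like genes, 27 were higher and 24 lower without a filter on low counts, 18 and 5 with at least 3 UMIs of the lymphocyte genes, 17 and 4 without doublet calls, 30 and 11 with the gate without Trbc2 (chosen after seeing the data), 0 and 0 with a keratin and collagen limit of 10 UMIs, and 0 and 0 without the library block. DESeq2 called 6 higher and 1 lower. A split by Cd3g and Trac, thinned cells and cells free of other lineages left too few cells for this fit, and leaving out a library left no residual degrees of freedom. Against other cells, 606 genes were lower in DESeq2 and 1453 with libraries of at least 10 lymphocytes (chosen after seeing the data), and with each library left out 370 (without Acute replicate 2) to 819 were higher and 781 to 1537 lower. The count lower was 781 without Healthy replicate 1, 1227 without Healthy replicate 2, 1024 without Acute replicate 2 and 1358 without Chronic replicate 2. Against C1q cells, 155 were higher in DESeq2, and with each library left out 188 (without Acute replicate 2) to 370 were higher and 394 to 700 lower. Over the genes named with a fit, 381 alternatives kept the direction and the side of the threshold, 11 lost the threshold and 0 reversed. Many of these genes were picked from the same fits, for large changes with 1 direction in all libraries. The alternatives also reuse most of the same cells, so this count is a description and no check. Depth limits genes of a few UMIs, and an absence in classes of 10 cells or fewer is weak evidence.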
